A study of Mus musculus with 44 samples.

Results

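Input RNA of C2C12 cells on day 3 of differentiation was compared with input RNA of growing cells on day 0, over the 5 input arrays of each day. These 10 arrays, out of 44 in the series, are the signal columns whose names begin with input and give day 0 or day 3. C2C12 is an established mouse myoblast line. Day 0 cells grew in DMEM with 10% fetal bovine serum, and day 3 cells had been moved, while sub-confluent, to DMEM with 2% horse serum. The labels name no genetic change and no antibody for these 10 arrays, and the line is the same throughout. The remaining arrays are 5 input arrays of day 6 and 29 arrays of RNA recovered with beads carrying an antibody against AUF1, an RNA-binding protein, or control IgG on days 0, 2, 4 and 6. Input titles say DNA, but the molecule field and the descriptions of these samples say RNA, which is how they were read. Total RNA was amplified from an oligo-dT primer, labelled with biotin and hybridised to Illumina bead arrays, so what was read is the polyadenylated transcript level per probe. Nothing in the sources used here says that the 5 arrays of a day came from separate cultures, so p-values measure the spread between these samples, which may be technical.

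Myoblasts in rich serum divide and hold their muscle genes in check. When serum is withdrawn they leave the cell cycle, the myogenic transcription factors MyoD and myogenin together with MEF2 proteins switch on contractile, fusion and metabolic genes of muscle, and genes for DNA replication and mitosis are turned down. The cells then align and fuse into multinucleated myotubes, while a fraction of the culture usually stays mononuclear. The early days of this program are the interval measured here. The deposited table names probes by Illumina identifier alone and the sources used here do not pair them with genes. The transcripts of that program, the markers of myoblasts and myotubes and the cell type check are therefore not analysed here, and the transcriptome is described by abundance, by detection and by a few probe identifiers. In bulk RNA, fewer cells of a type and less RNA per cell cannot be told apart.

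Column names end in a code with the letter E and a last number, read here as experiment number and array number. The sample titles give neither. By this reading the day 0 arrays are numbered 33, 36, 39, 42 and 45 and belong to experiments 1, 1, 2, 3 and 4. The day 3 arrays are numbered 34, 37, 40, 43 and 46 and belong to experiments 1, 2, 2, 3 and 4. Of the 25697 probes in the table, 46.7% ± 0.742 (SD, n = 5) were detected per array on day 0 and 46.8% ± 1.23 (SD, n = 5) on day 3, where detected means a deposited detection p-value under 0.05. The mean signal was 273 ± 55.3 (SD, n = 5) on day 0 and 245 ± 24.3 (SD, n = 5) on day 3. Across probes the log2 values of 2 arrays of day 3 correlated at 0.9593 to 0.9888 and those of 2 arrays of day 0 at 0.9368 to 0.9918, whereas an array of day 0 and an array of day 3 correlated at 0.8583 to 0.9184. These correlations describe probes within a cell line and are not independent replicates. The number of arrays limits the precision of every value below.

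Day 0 array 45 stood apart from the other day 0 arrays. It correlated with them at 0.9368 to 0.9487, while the other 4 correlated with each other at 0.966 to 0.9918. For each array in turn, the probes that changed by more than 2-fold were found in a fit without that array, and the array was then placed between the day 0 mean (0%) and the day 3 mean (100%) on each of these probes. Array 45 lay at a median of 23.7% of the way to day 3 over 752 probes, with quartiles of 4.15% and 42.3%. The other day 0 arrays lay at -9.01% to 7.86%, and the 5 day 3 arrays at 86% to 111%. On array 45 the displacement was 28.8% for the 430 probes that rose and 16.7% for the 322 that fell. Its mean signal, 208, was the lowest of the 10 arrays. Its part in the main counts, the named probes and the signal shares was measured by leaving it out, and those values without it are given below.

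**Figure D1:**
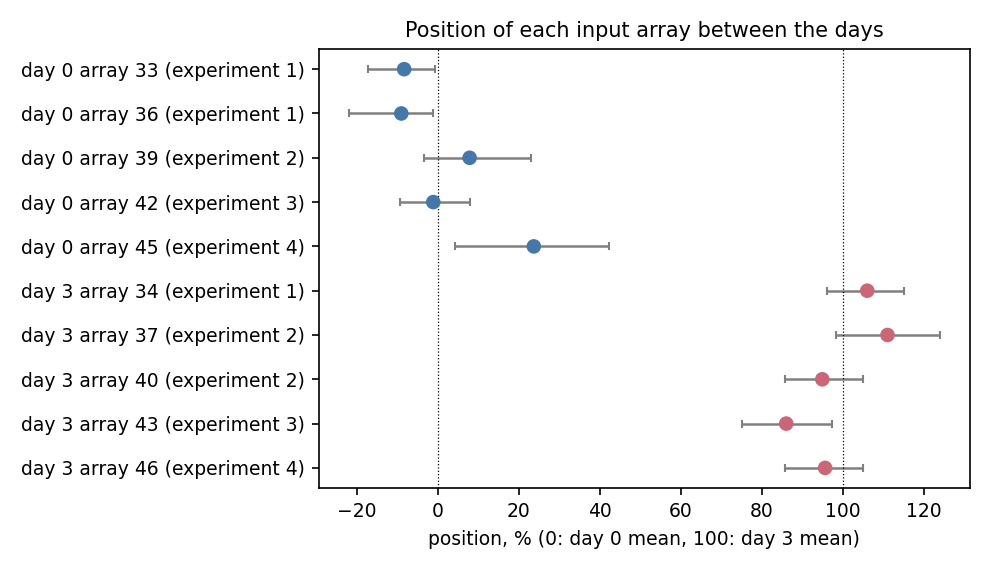
Position of each of the 10 input arrays between the day 0 mean (0%) and the day 3 mean (100%), in percent, over probes that changed by more than 2-fold in a fit without that array. Points are medians over probes and bars run from the lower to the upper quartile; day 0 array 45 lies at 23.7%, the other day 0 arrays between -9.01% and 7.86%, and the day 3 arrays between 86% and 111%.

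Of 5 measures taken over a whole array, detected share, mean, median and highest signal and the share of the brightest probes, 1 passed the test between the days, the highest signal. The detected share differed by 0.0864 percentage points between day 3 and day 0 (exact permutation test, two-sided, p = 0.889; adjusted p = 0.889 over 5 measures per array), and its sign depended on the arrays included, with -0.2574 to 0.5471 points when each array was left out in turn. The brightest 1% of probes, 257 probes on each array, carried 26.5% ± 0.739 (SD, n = 5) of the summed signal on day 0 and 26.2% ± 0.458 (SD, n = 5) on day 3 (difference -0.363 points, exact permutation p = 0.381; adjusted p = 0.476). The median signal of all probes was 60.5 ± 2.46 (SD, n = 5) and 59.1 ± 1.19 (SD, n = 5) (exact permutation p = 0.254; adjusted p = 0.476), and the mean signal gave p = 0.373 (exact permutation; adjusted p = 0.476). A p above the threshold does not show that these measures were alike.

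The single brightest probe of each array did differ. Its signal was 32100 ± 3390 (SD, n = 5), between 28000 and 37000, on day 0 and 23700 ± 2070 (SD, n = 5), between 21200 and 26600, on day 3. The groups did not overlap, and the difference of -8380 gave an exact permutation p of 0.00794, the smallest that 5 arrays against 5 can give (adjusted p = 0.0397). The permutation counted each array as a separate unit, although day 0 arrays 33 and 36 share an experiment number, as do day 3 arrays 37 and 40. With fewer units the smallest possible p would be larger, and whether the highest signal would still pass was not tested. On day 6 the brightest probe read 24800 ± 3790 (SD, n = 5).

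The identity of the bright transcripts also changed between the days. The lists of the 257 brightest probes of 2 day 3 arrays shared 202 to 228 probes (median 220), and those of 2 day 0 arrays shared 180 to 234 (median 198.5), or 195 to 234 (median 217) without array 45. A day 0 array and a day 3 array shared 150 to 182 probes (median 162, 63% of each list). A day 3 array and a day 6 array shared 207 to 228 (median 219). Pairs of a day 0 and a day 3 array thus shared at most 182 of their brightest probes, and pairs within day 0 or within day 3 at least 195, except for day 0 pairs with array 45, which reached down to 180.

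Between day 0 and day 3, limma called 5148 of 13750 tested probes at adjusted p under 0.05 (37.4%). Of these 2361 rose (17.2% of the tested probes) and 2787 fell (20.3%). Scaling each array to its median, in place of quantile normalization, gave 1485 rising and 2775 falling, so that 34.9% of calls rose against 45.9%. Without day 0 array 45 the fit called 5497 probes, 2454 rising and 3043 falling. In 3245 probes (23.6% of those tested) all 5 arrays of one day lay above all 5 of the other, 1544 with day 3 higher (11.2%) and 1701 with day 3 lower (12.4%). Of the probes called as rising, 1491 (63.2%) separated the 2 days in this way, and of those called as falling 1671 (60%).

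Most called changes were under 2-fold. The median change was 0.88 on the log2 scale (quartiles 0.62 and 1.37) among probes that rose and -0.81 (quartiles -1.15 and -0.59) among those that fell, against a median standard error of 0.19 and 0.18 and a median change of -0.02 over all tested probes. Changes under 1.5-fold made up 473 of the rising calls (20%) and 676 of the falling calls (24.3%). A test against a 2-fold change (limma's treat, adjusted p under 0.05) left 639 probes (4.65% of the tested probes), of which 364 rose (2.65%) and 275 fell (2%). The 364 had a median log2 level of 5.62 on day 0 and 8.74 on day 3, and stood at 8.95 on day 6. The 275 had a median log2 level of 8.23 on day 0 and 5.78 on day 3, and stood at 5.87 on day 6. Day 6 is set against the same day 0 arrays, so these levels are given side by side and no comparison is drawn from them. Without array 45 the test against 2-fold called 752 probes, 430 rising and 322 falling.

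Rising and falling probes were close in number at 2-fold and parted at higher folds. Among called probes, 977 rose and 944 fell by at least 2-fold, a split that turned to 813 and 1213 under median scaling. At least 4-fold changes numbered 296 and 191, at least 8-fold changes 133 and 40, at least 16-fold changes 65 and 3, and at least 32-fold changes 30 and 2. The excess of rises at 8-fold and above was present in every setting counted: 122 against 51 with median scaling, 132 against 37 with scaling by mean and SD, 60 against 13 without background correction, 76 against 18 with an offset of 50, 147 against 43 without array 45, and 122 against 30 when arrays of the same day and experiment were averaged. Most of the excess at 4-fold, 8-fold and 16-fold lay in probes not detected on all 10 arrays, and so near background on some. Among probes detected on all 10 arrays, 646 rose and 744 fell by at least 2-fold, 135 and 136 by at least 4-fold, 47 and 37 by at least 8-fold and 17 and 3 by at least 16-fold.

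The called probes were then summed on the deposited signal scale. Since these probes were chosen on the same contrast, the sums are a description. Probes that rose held 12.8% ± 1.09 (SD, n = 5) of an array's summed signal on day 0 and 27.1% ± 1.16 (SD, n = 5) on day 3, and 28.2% ± 1.36 (SD, n = 5) on day 6. Probes that fell held 30.6% ± 1.19 (SD, n = 5), 16.9% ± 0.851 (SD, n = 5) and 16.2% ± 0.77 (SD, n = 5) on these days. The 8602 tested probes that were not called held 47.3% ± 1.27 (SD, n = 5) on day 0 and 46.1% ± 0.394 (SD, n = 5) on day 3. In a fit without array 45, rising probes held 13% ± 0.882 (SD, n = 4) on the other day 0 arrays, and 16.4% on array 45 itself, against 28.1% ± 1.04 (SD, n = 5) on day 3. Falling probes of that fit held 33.4% ± 1.05 (SD, n = 4), 29.3% on array 45, and 18.5% ± 0.827 (SD, n = 5) on day 3. The deposited signals include background: the lowest signal of an array, taken over all its probes, would make up 9.59% to 16.6% of the sum.

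The tested probes were divided into 4 abundance classes of equal size by their mean log2 value over all 15 input arrays, a measure of relative abundance between probes that also depends on each probe's affinity. In the dimmest class 591 of 3438 probes were called (17.19%), in the second 1323 of 3437 (38.49%), in the third 1593 of 3437 (46.35%) and in the brightest 1641 of 3438 (47.73%). The share called thus increased from the first class to the third and differed little between the third and the brightest. The median size of the change, called or not, was 0.16, 0.38, 0.47 and 0.45 on the log2 scale, and the median standard error 0.15, 0.20, 0.20 and 0.18. In the dimmest class 123 probes (3.58%) were detected on all 10 arrays, against 2502 (72.8%), 3332 (96.95%) and 3411 (99.21%) in the others, so most values there lie near background, where the 16 added before the logarithm compresses log2 changes.

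The direction of change also moved with abundance. In the dimmest class 154 probes rose and 437 fell, in the second 578 and 745, in the third 772 and 821, and in the brightest 857 and 784. Of the 3 input days 2 are of differentiated cells, so a mean over 15 arrays gives the differentiated level more weight. Classes by the mean of day 0 and day 3 with equal weight, a definition added after these counts were seen, gave 249 rising and 345 falling, 595 and 728, 749 and 849, and 768 and 865. The surplus of rises in the brightest class was therefore not kept, and falls outnumbered rises in each of these 4 classes. Classes by the day 6 arrays alone moved the split the other way, with 74 rising and 635 falling in the dimmest and 1046 rising and 631 falling in the brightest. The brightest class held 472 rises and 799 falls under median scaling, and 784 rises and 976 falls with equal weights and without array 45. Falls outnumbered rises in the dimmest class under each definition and scaling listed here, but by 345 to 249 with equal weights in place of 437 to 154.

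**Figure D2:**
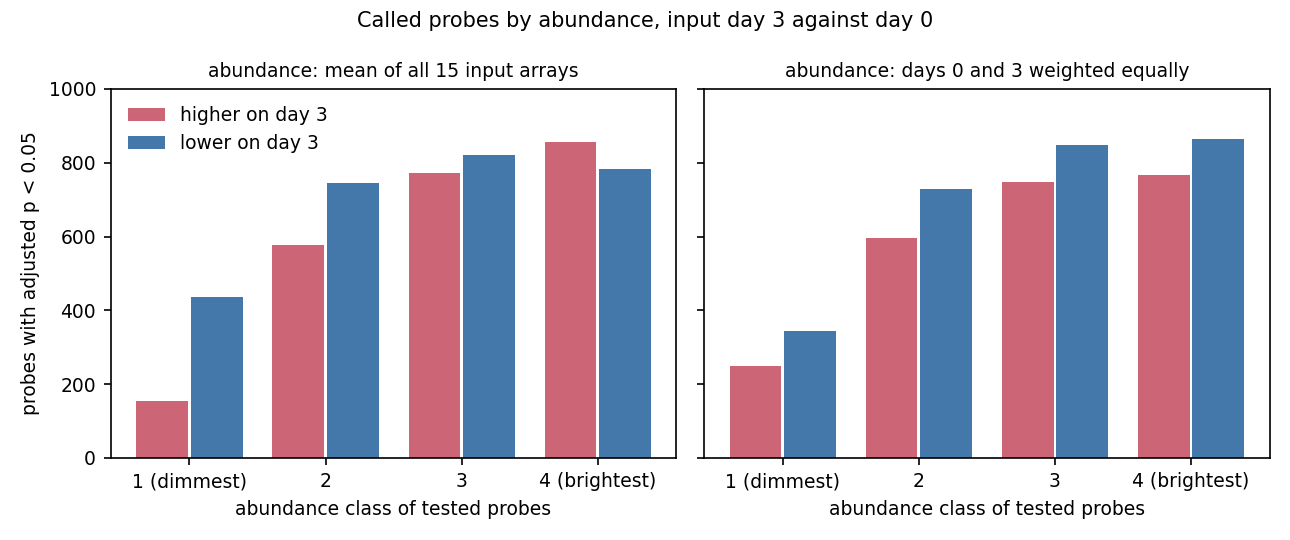
Number of probes called higher (red) or lower (blue) on day 3 than on day 0 at limma adjusted p under 0.05, in 4 abundance classes of the 13750 tested probes from the dimmest to the brightest. With abundance as the mean of 15 input arrays (left) the brightest class holds 857 rises and 784 falls, and with days 0 and 3 weighted equally (right) 768 rises and 865 falls.

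Changes beyond 2-fold were found mainly in the third and the brightest class. The test against a 2-fold change called 11 probes in the dimmest class, 0 rising and 11 falling, and 56 rising and 114 falling in the second. In the third class it called 160 rising and 100 falling, and in the brightest 148 and 50, with the same 15-array mean and the same tilt toward rising probes at the bright end. Among the brightest 1% of tested probes by this mean (138 probes), 33 rose and 34 fell, or 48.6%, and 14 rose and 2 fell by at least 2-fold. Among the brightest 5% (688 probes), 176 rose and 165 fell, or 49.6%, with 77 and 34 at 2-fold. The brightest probes were thus called at about the same rate as their class (47.73%). The class definition itself limits these splits by direction. Means in the dimmest class ran from 4.395 to 5.087 (log2). A probe near the low end on day 0 and raised on the later input days had little room to rise there. A probe bright on day 0 alone had more room to fall. Splits at or beyond 2-fold were not counted with equal weights, so no link between direction and abundance is drawn from them.

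Detection gave a second view that does not rest on normalization. Of the 25697 probes in the table, 9368 (36.5%) were detected on all 10 arrays and 10272 (40%) on none. All 9368 were tested, and 1748 of them rose and 2155 fell (41.7% called, against 37.4% of all tested probes). They made up 75.8% of all calls. Of the 10272, only 19 passed the filter on low values, through the day 6 arrays, and 0 of them were called. The remaining probes were detected on some of the 10 arrays.

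Complete switches were rare. On no day 0 array but on all 5 day 3 arrays, 132 probes were detected (0.514% of the table), and 80 were detected on all 5 day 0 arrays and on no day 3 array (0.311%). All of them passed the filter on low values through the day on which they were seen, so that a difference was bound to appear. Of the 132, 130 were called as rising, and of the 80, 79 as falling; these counts describe the classes and support nothing further. Just outside these 2 groups, of 117 probes detected on 1 day 0 array and all 5 day 3 arrays 103 rose, and of 57 detected on 0 and 4 arrays 36 rose. Of 78 probes detected on all 5 day 0 arrays and 1 day 3 array 68 fell, and of 79 detected on 4 and 0 arrays 71 fell. Over all tested probes 17.2% rose and 20.3% fell. These neighbours were also picked by detection on the same arrays, so their counts are a description too. The sizes of the 2 switched classes move with single arrays. Without array 45 they were 196 and 117, and without day 0 array 39 they were 152 and 109.

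**Figure D3:**
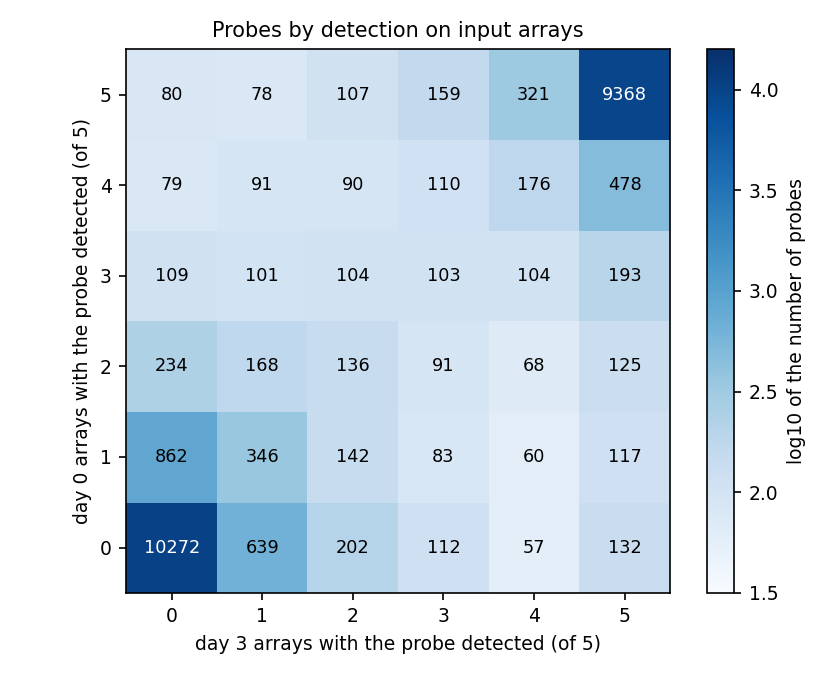
Number of probes of the whole table by the number of day 3 arrays (horizontal axis, of 5) and day 0 arrays (vertical axis, of 5) on which they were detected at p under 0.05, with colour on a log10 scale. The corners hold 10272 probes seen on none and 9368 seen on all 10 arrays, and the switched corners hold 132 and 80.

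The transcripts that appeared were dim. The 132 probes had a median log2 level of 5.69 on day 3, from 4.78 to 9.28, where the lowest level of a detected probe lay between 4.64 and 4.76 on the 10 arrays. A probe below detection has only a bound there, and each of its undetected values was replaced by the lowest detected value of that array where that was higher, before the fold to the bright day's mean was taken. With this bound the 132 were at least 2-fold higher at the median (range 1.06 to 24), with 66 at 2-fold or more, 31 at 4-fold or more and 9 at 8-fold or more. The 80 probes that went out of detection had a median log2 level of 5.33 on day 0, from 4.83 to 7.29. They were at least 1.56-fold lower at the median (range 1.11 to 6.07), with 26 at 2-fold or more, 2 at 4-fold or more and 0 at 8-fold or more. Without background correction the median bounds were 1.35-fold and 1.19-fold.

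The day 6 input arrays were not used to define these classes. On them 113 of the 132 probes were detected on all 5 arrays, 19 on some and 0 on none. Among all probes 40.3% were detected on all 5 and 44.8% on none. That base includes the 10272 probes seen on no day 0 or day 3 array, so it is a poor measure for probes chosen as detected. Of the 9368 probes detected on all arrays of both days, 9122 were detected on all 5 day 6 arrays. Of the 80 probes lost by day 3, 0 were detected on all 5 day 6 arrays, 25 on some and 55 on none.

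The 4 probes printed by identifier were the highest and the lowest called change among probes detected on all 10 arrays, and the largest bound in each switched class. ILMN_2482209, the highest, read 5.90, 6.02, 7.35, 6.27 and 9.90 on day 0 arrays 33, 36, 39, 42 and 45 (normalized log2 intensity). On day 3 arrays 34, 37, 40, 43 and 46 it read 13.01, 13.38, 13.14, 13.01 and 13.19. The day 3 arrays lay close together and above every day 0 array, and array 45 was the highest of day 0 by a wide margin. The change was 6.06 ± 0.52 (log2, SE; limma adjusted p = 9.78e-08), or 66.6-fold, from 7.09 ± 1.67 (SD, n = 5) to 13.1 ± 0.154 (SD, n = 5). Without array 45 it was 6.75 ± 0.22 (log2, SE; limma adjusted p = 2.52e-12), or 108-fold. On day 6 the level was 13.4 ± 0.058 (SD, n = 5).

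ILMN_2875585, the lowest, read 13.52, 13.54, 13.32, 13.63 and 12.87 on the day 0 arrays in the same order. On the day 3 arrays it read 7.16, 6.20, 7.67, 6.66 and 7.11. It was among the brightest probes of growing cells and fell on every day 3 array, with no overlap. The change was -6.42 ± 0.28 (log2, SE; limma adjusted p = 6.45e-11), from 13.4 ± 0.303 (SD, n = 5) to 6.96 ± 0.555 (SD, n = 5), and day 6 stood at 5.87 ± 0.591 (SD, n = 5). Without array 45 the change was -6.53.

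ILMN_1234662 went from below detection on all 5 day 0 arrays to detection on all 5 day 3 arrays. It read 4.21, 4.30, 4.70, 4.32 and 4.63 on day 0 and 10.05, 10.54, 8.97, 8.30 and 8.52 on day 3. Its day 3 values fall into a higher pair, arrays 34 and 37, and 3 lower arrays. With the bound described above the probe was at least 24-fold higher on day 3 (fitted log2 change 4.85 ± 0.42, SE; limma adjusted p = 1.07e-07), and day 6 stood at 9.71 ± 0.897 (SD, n = 5). The size of the bound depends on the background correction and the offset: it was 8.58-fold without background correction, 11-fold with an offset of 50 and 24.5-fold without array 45. The highest correlation between 2 day 3 arrays, 0.9888 across probes, was also that of arrays 34 and 37. Their neighbours by number were the closest pairs of the other days, arrays 33 and 36 on day 0 (0.9918) and arrays 35 and 38 on day 6 (0.9927). On day 6 this probe was also highest on arrays 35 and 38, at 10.25 and 10.77. What groups these arrays was not tested.

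ILMN_2919999 went the other way, from detection on all 5 day 0 arrays to none on day 3. It read 7.31, 7.82, 7.53, 7.45 and 6.36 on day 0, lowest on array 45, and 4.4, 4.60, 4.47, 4.36 and 4.39 on day 3. The probe was at least 6.07-fold lower on day 3 (fitted log2 change -2.85 ± 0.20, SE; limma adjusted p = 9.65e-09), and it was detected on 0 of 5 day 6 arrays, at 4.51 ± 0.0822 (SD, n = 5). The bound was 2.69-fold without background correction, 3.22-fold with an offset of 50 and 7.24-fold without array 45, where the fitted change was -3.1. All 4 probes kept their direction and their call in the 20 other settings run for each, with a highest limma adjusted p of 1.82e-05, for ILMN_1234662 without background correction, where its fitted change was 3.26 and that of ILMN_2919999 -1.55.

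**Figure D4:**
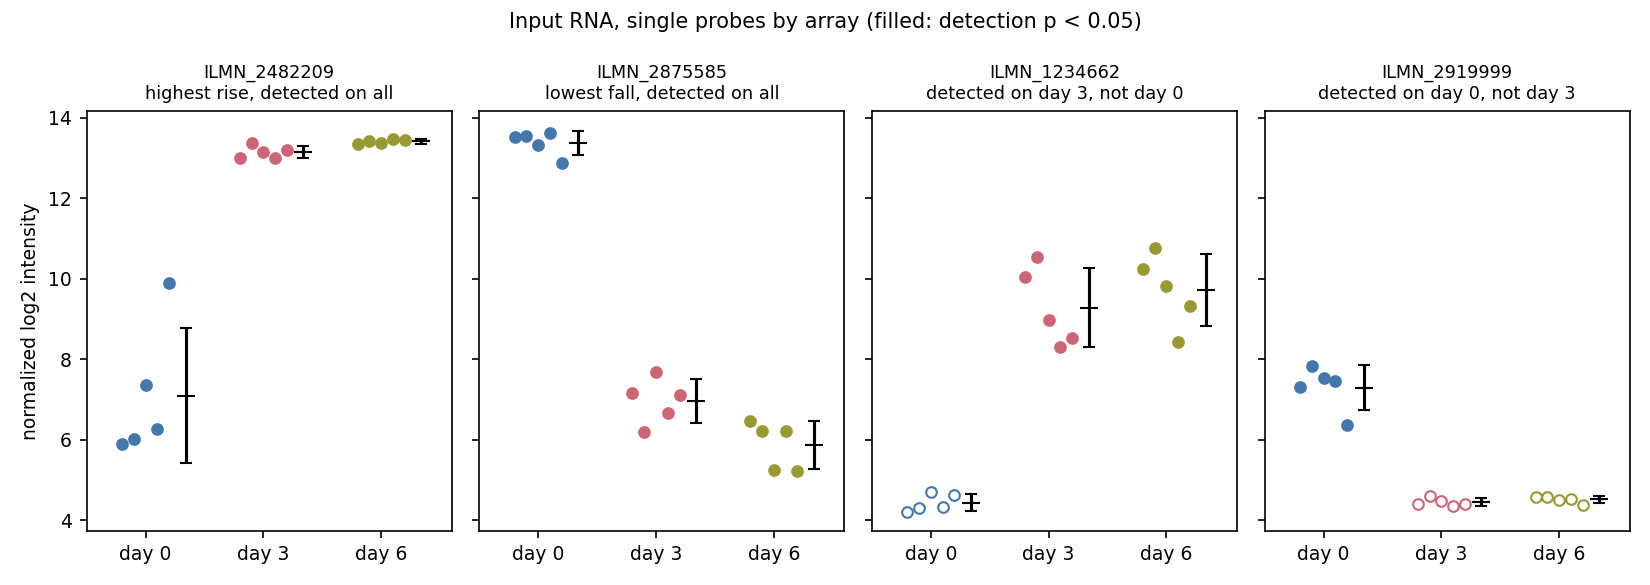
Normalized log2 intensity of 4 probes on the 5 input arrays of each of days 0, 3 and 6, in the order of array number, with filled points where the detection p-value was under 0.05; bars give the mean and SD of 5 arrays. ILMN_2482209 rises from 7.09 to 13.1 and ILMN_2875585 falls from 13.4 to 6.96 between day 0 and day 3, and array 45 is the day 0 point nearest to day 3 in the first, the second and the last panel.

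Pulldown arrays of the same cell line, normalized apart from the input arrays and sharing no array with them, were set beside the input change. The IgG arrays hold RNA that stuck to beads with a control antibody on days 0 (4 arrays), 2 (3) and 4 (4); the arrays used here hold no pulldown of day 3. IgG day 4 against day 0 called 235 of 13812 probes (1.7%; limma, adjusted p under 0.05), 186 rising and 49 falling, and 528 (3.82%) once the experiment number, which pairs the IgG arrays, entered as a replicate block. IgG day 2 against day 0 called 118 (0.854%), and 323 (2.34%) with the block. The detected share ran from 34% to 46.3% on the IgG arrays of day 0 and from 25.6% to 46.8% on those of day 4. Whether these depth differences have a part in the counts was not tested.

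Of the 364 probes that rose by more than 2-fold in input, 354 were tested on both kinds of array. On the IgG arrays 338 of the 354 were higher on day 4 than on day 0, with a median log2 change of 1.03, and 115 were called as higher and 0 as lower (32.5%, or 46.6% with the block). Over all 12511 probes tested on both, 5638 were higher and 6873 lower, the median was -0.04 and 1.86% were called (4.19% with the block). On day 2, 301 of the 354 were higher, with a median of 0.62, and 52 were called as higher (14.7%, against 0.935% of all). Most of these probes thus stood higher in differentiating cells also on arrays that took no part in choosing them. Pulldown and input columns carry the same experiment numbers, so their RNA may come from the same cultures, and independent replication is not shown.

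Of the 275 probes that fell by more than 2-fold in input, 270 were tested on both. On IgG day 4 against day 0, 260 were lower, with a median log2 change of -0.66, and 17 were called as lower and 0 as higher (6.3%, or 16.7% with the block), where 0.384% of all 12511 were called as lower (1.4% with the block). On day 2, 230 were lower, with a median of -0.46, and 13 were called as lower (4.81%, against 0.224% of all). Probes with input changes of any called size showed smaller shifts: the 2202 rising probes tested on both had a median of 0.31 on day 4, with 1690 higher, and the 2669 falling probes a median of -0.34, with 2292 lower. The 7640 probes not called in input had a median of -0.02. Across the 12511 probes the input change and the IgG change correlated at r = 0.655 for day 4 and 0.507 for day 2; the points share the probes and their affinity but no array, and the value is a description.

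The AUF1 pulldowns gave values of similar size, and the 2 antibodies were not compared. The 354 rising probes had a median of 0.96 on AUF1 day 4 against day 0, with 329 higher and 110 called as higher (31.1%, against 1.85% of all 12511), and 0.53 on day 2, with 294 higher. The 270 falling probes had a median of -0.65 on day 4, with 250 lower and 15 called as lower (5.56%, against 0.456% of all 12511). On day 2 their median was -0.56, with 239 lower. Of all 12511 probes 7111 were lower and 5400 higher on day 4, and 7302 and 5209 on day 2. AUF1 called 234 of 13812 probes on day 4 (1.69%) and 237 on day 2 (1.72%).

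**Figure D5:**
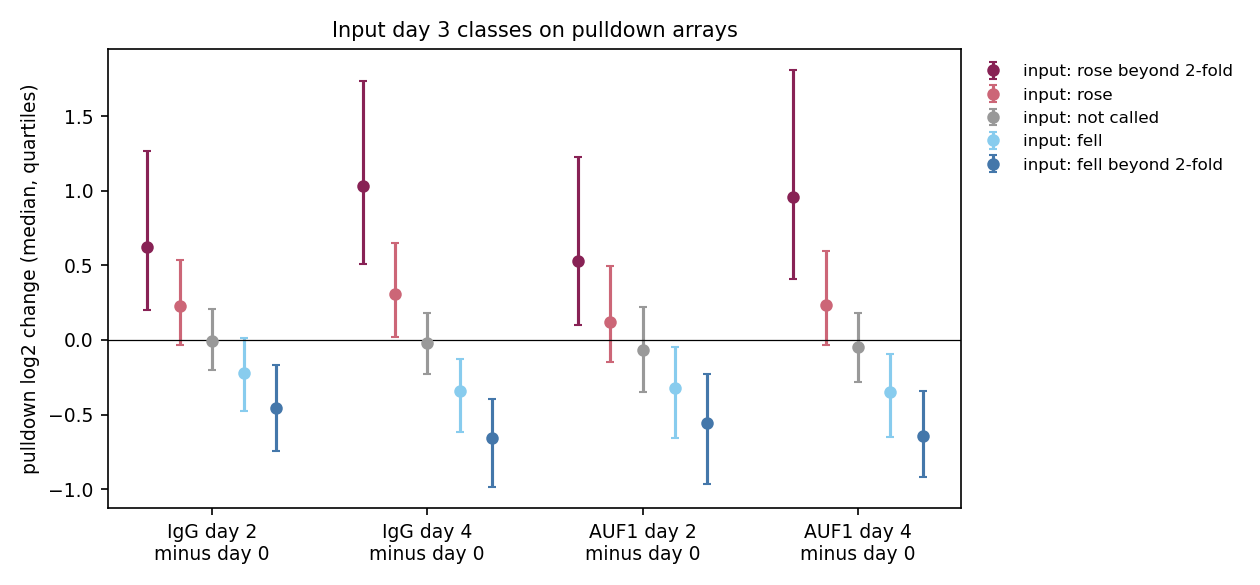
Log2 change on pulldown arrays, day 2 or day 4 minus day 0, of probes grouped by their input change from day 0 to day 3; points are medians over probes and bars run between the quartiles. Probes that rose by more than 2-fold in input stand at medians of 0.62 and 1.03 with IgG and 0.53 and 0.96 with AUF1, probes that fell by more than 2-fold at -0.46 and -0.66 with IgG and -0.56 and -0.65 with AUF1, and uncalled probes near 0.

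The switched classes were followed in the same way, by detection alone. Of the 132 probes seen on day 3 and not on day 0 in input, 91 (68.9%) were detected on no IgG array of day 0, 70 (53%) on none of day 2 and 35 (26.5%) on none of day 4, against 47.6%, 52.1% and 48.2% of the whole table. Of the 80 probes seen on day 0 and not on day 3, 6 (7.5%) were detected on no IgG array of day 0, 30 (37.5%) on none of day 2 and 17 (21.2%) on none of day 4. IgG day 2 had 3 arrays and the other days 4, so a probe had fewer chances to be seen there. With AUF1 the 132 probes were undetected on all arrays for 106 (80.3%), 97 (73.5%) and 64 (48.5%) on days 0, 2 and 4. The 80 probes were undetected on all arrays for 14 (17.5%), 56 (70%) and 47 (58.8%) on days 0, 2 and 4, against 53.4%, 60.3% and 57.2% of the table. AUF1 had 4 arrays on day 0 and 3 on days 2 and 4.

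The 4 named probes were read on the same arrays. ILMN_2482209 had a mean of 8.24 ± 0.676 (SD, n = 4) on IgG day 0, 11.4 ± 0.138 (SD, n = 3) on day 2 and 12.1 ± 0.58 (SD, n = 4) on day 4 (limma adjusted p = 1.87e-05 for day 2 and 7.11e-08 for day 4). ILMN_2875585 went from 9.26 ± 1.24 (SD, n = 4) to 6.51 ± 0.245 (SD, n = 3) and 6.70 ± 0.962 (SD, n = 4) (limma adjusted p = 0.0393 and 0.0206). Both had moved by day 2, a day before the input samples were taken. ILMN_1234662 was detected on 0 of 4 IgG arrays of day 0, 2 of 3 of day 2 and 3 of 4 of day 4. Its change of 2.92 on day 4 was not called (limma adjusted p = 0.113) and was called with the replicate block (limma adjusted p = 0.0238), while on IgG day 2 its change of 1.29 was not called (limma adjusted p = 0.953), nor was that of 1.11 with the block (limma adjusted p = 0.622). With AUF1 it was 1.56 on day 2, not called (limma adjusted p = 0.501), and 4.39 on day 4 (limma adjusted p = 0.0106). ILMN_2919999 was detected on 4 of 4, 1 of 3 and 2 of 4 IgG arrays, with changes of -1.56 on day 2 and -1.48 on day 4 (limma adjusted p = 0.0161 and 0.00651). With AUF1 its changes of -1.20 and -1.16 were not called (limma adjusted p = 0.0637 and 0.0822). ILMN_2482209 changed by 2.79 and 3.50 with AUF1 (limma adjusted p = 8.33e-05 and 1.37e-06) and ILMN_2875585 by -2.60 and -2.66 (limma adjusted p = 0.0375 and 0.031).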

How the data were processed

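Per the file headers, the deposited values are non-normalized signal intensities, each with a detection p-value, for 25697 probes and 44 arrays. GenomeStudio 1.6.0 is named in the submitters' processing notes. The lowest input signal was 32.7, and no source used here says whether the authors subtracted background. Column names give group and day, and further numbers read here as experiment and array number. Columns were assigned to groups, not to single samples.

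The 15 input arrays went through limma's neqc (limma 3.58.1, R 4.3.3): normal-exponential background correction with negative controls inferred from the detection p-values, an offset of 16, quantile normalization and log2. Total RNA per cell is therefore not measured. Probes detected at p under 0.05 on at least 3 of 15 arrays were tested (13750). Days 0, 3 and 6 shared 1 spread per probe (lmFit, eBayes; treat for 2-fold), with Benjamini-Hochberg adjustment. The 29 pulldown arrays were processed likewise, and 13812 probes tested. One value per array was compared by exact permutation, two-sided. The fits were tested on simulated data.

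The experiment number in the column names was checked as a pairing by correlating deviations from group means across probes. Same-numbered IgG arrays correlated at 0.5 to 0.73 (days 0 and 4) and 0.54 to 0.72 (days 0 and 2), each over 0.1, and were taken as pairs. AUF1 arrays correlated at 0.049 to 0.61 and input arrays at -0.11 to 0.14, and were not.

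The 4 named probes follow a rule: the highest and lowest called change among probes detected on all 10 arrays, and the largest bound in each switched class. The comparison, the rule and all lists were chosen with earlier results of these data known. The gene table given holds 0 of the probe identifiers, so the gene lists were not used. Alternatives were background correction, normalization, filters, offset, moderation, weights, blocks, averaging by experiment, definitions of abundance and detection, and leaving out each array.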

Additional observations from a re-analysis of the deposited data

Results flagged for a closer look

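In 24 checks of a group of arrays for a single distant member, 1 was found. Day 0 array 45 had a mean correlation of 0.942 with the other day 0 arrays, across probes, while the other 4 arrays of that day had mean correlations of 0.966 to 0.972. The gap to the nearest array was 0.802 of the whole range, above the limit of 0.71 for 5 arrays. Chance alone marks about 1 independent group in 20. The 24 checks reuse the same arrays, so whether chance gave this mark was not tested. Array 45 also had the lowest weight of the 15 input arrays in limma's array weights, 0.205, against 2.09 for the highest, day 0 array 33. The median SD over tested probes was 0.301 on day 0 with array 45, 0.215 without it and 0.25 on day 3 (log2). What sets the array apart was not tested.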

How the results depend on the processing

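Every probe called in input kept its sign in every setting in which it was tested. Leaving out each array in turn gave 4543 to 5497 calls, 567 to 752 beyond 2-fold, 511 to 689, 1152 to 1372, 1419 to 1673 and 1445 to 1763 calls in the 4 abundance classes from dimmest to brightest, 136 to 196 probes seen only on day 3, 80 to 117 seen only on day 0, a difference in detected share of -0.2574 to 0.5471 points, in the brightest 1% of -0.6641 to -0.2353 points, and 171 to 288 IgG calls. Changes beyond 2-fold numbered 346 without background correction and 415 with an offset of 50, both of which compress dim probes by construction. Without a detection filter the abundance classes are cut over all probes and held 16, 164 and 2725 calls in the first, second and brightest, and with detection p under 0.01 on at least 5 arrays 949 calls lay in the dimmest. Counting a switch as at most 1 of 5 against at least 4 of 5 arrays gave 366 and 328 probes. Input calls numbered 5145 under a replicate block of the experiment number, and array numbers taken in consecutive blocks, added after the data were seen, gave 5461. Averaging arrays of the same day and experiment, also added then, gave 4341. For IgG day 4 against day 0, median scaling gave 116 calls, the replicate block 528 and IgG arrays alone with the block, added after the data were seen, 376. A replicate block gave 789 AUF1 calls on day 2 and 567 on day 4, against 237 and 234 without it, though those numbers were not taken as pairs. The cause of the change under median scaling was not tested. The fold bounds of switched probes under other settings were added after the data were seen.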
